A study of Mus musculus with 31 samples.

Results

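Ribosome footprints were compared between cortex of mice lacking both Fmr1 and Rps6kb1, labelled DKO, and cortex of mice lacking Rps6kb1 alone, labelled S6K1. The comparison rests on 6 footprint libraries, 3 of each genotype, out of 15 footprint libraries and 31 libraries in the series. The members were taken from the genotype label of each library, with no measured value used to choose them. Both groups are deficient in Rps6kb1, so the comparison asks what loss of Fmr1 did to footprints where S6K1 was already missing. The other 9 footprint libraries were 4 from wild-type cortex (WT) and 5 from cortex deficient in Fmr1 alone (FXS), and the remaining 16 were mRNA libraries, 4 of each genotype. All mice were between postnatal days 29 and 34. The labels do not say how either gene was disrupted, which strain or sex was used, whether cortices were pooled, or whether any animal gave both a footprint and an mRNA library.

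Fmr1 encodes FMRP, an RNA-binding protein that associates with ribosomes on many neuronal mRNAs and is best known as a repressor of their translation. Its loss causes fragile X syndrome in people, and Fmr1-deficient mice are the standard model of that disorder. Rps6kb1 encodes S6K1, a kinase that acts downstream of mTORC1 and phosphorylates ribosomal protein S6 and several initiation and elongation regulators. Crosses of Fmr1-deficient with S6K1-deficient mice have been used to ask whether removal of S6K1 changes the consequences of FMRP loss. Ribosome profiling sequences the mRNA fragments that ribosomes protect from nuclease, so a footprint count depends both on how much of an mRNA is present and on how many ribosomes it carries.

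The S6K1 footprint libraries held 22.0, 16.6 and 24.2 M counts and came from batches 1, 2 and 3 of the labels. The DKO libraries held 26.1, 34.1 and 23.8 M counts and came from batches 1, 3 and 4. Batches 1 and 3 therefore held both genotypes, while S6K1 library 2 and DKO library 3 had no partner of the other genotype in their batch. Over 8932 genes with a mean of at least 10 CPM (counts per M of library total, with the library sizes scaled), the root mean square log2 difference was 0.251 between the genotypes within batch 1 and 0.273 within batch 3. Between libraries of 1 genotype it ran from 0.270 to 0.500 for S6K1 and from 0.375 to 0.595 for DKO, with DKO libraries 1 and 3 farthest apart. Libraries of the same batch but different genotype were thus closer than most libraries of the same genotype, and batch was a term in the model. No pair of the 6 libraries agreed within counting noise. Y-linked genes were detected in all 6, with Ddx3y between 84.7 and 136 CPM.

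Fmr1, the gene that separates the groups, was read first. Its footprints stood at 159, 104 and 135 CPM in S6K1 libraries 1 to 3. They stood at 12.8, 10.7 and 8.03 CPM in DKO libraries 1 to 3. Every DKO library was far below every S6K1 library, and the labels held in all 6. The means were 133 CPM ± 27.7 (SD, n = 3) in S6K1 and 10.5 CPM ± 2.37 (SD, n = 3) in DKO. The fitted log2 fold change was -3.68 ± 0.13 (SE), with a 95% interval from -3.95 to -3.41 and an adjusted p of 2.31e-10 by edgeR's quasi-likelihood test. Fmr1 footprints were therefore 12.8-fold lower in DKO, with 7.81% of the S6K1 level left. The log2 difference was -3.63 within batch 1 and -3.65 within batch 3.

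Fmr1 mRNA was less reduced than Fmr1 footprints. It stood at 82.6, 73.8, 65.8 and 69.1 CPM in the S6K1 mRNA libraries. It stood at 21.6, 14.3, 10.6 and 14.9 CPM in the DKO mRNA libraries. The mRNA groups did not overlap either, with a log2 fold change of -2.26 ± 0.12 (SE) and an adjusted p of 5.84e-11 by edgeR, which leaves 20.9% of the transcript counts. The difference between the footprint and the mRNA change, which is the change in translational efficiency (TE), was -1.42 on the log2 scale with an adjusted p of 0.000288 by edgeR. Fmr1 is itself the disrupted gene, and the labels do not describe the transcript that remains. What this TE value reflects was not tested. The loss of Fmr1 footprints did not differ detectably from that between FXS and WT mice, where means were 7.85 CPM ± 0.628 (SD, n = 5) and 117 CPM ± 15.3 (SD, n = 4). The interaction, defined as the DKO against S6K1 change minus the FXS against WT change, was 0.20 for Fmr1 with an unadjusted p of 0.223 by edgeR. Fmr1 lies on chromosome X at 68678536 to 68717963 in the GRCm38.p6 assembly.

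Rps6kb1 is disrupted in both groups and should not separate them. Its footprints were 12.8, 7.62 and 10.1 CPM in the S6K1 libraries and 12, 11.7 and 11.3 CPM in the DKO libraries. These values overlap, and the log2 fold change was 0.19 with a 95% interval from -0.10 to 0.47 and an adjusted p of 0.687 by edgeR. Rps6kb1 mRNA gave a log2 fold change of -0.03 and an adjusted p of 0.892 by edgeR. For scale, mean Rps6kb1 footprints were 28.9 CPM ± 2.48 (SD, n = 4) in WT and 32.5 CPM ± 2.72 (SD, n = 5) in FXS cortex, above every S6K1 and DKO library. The gene lies on chromosome 11 at 86498869 to 86544885 in GRCm38.p6.

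**Figure D1:**
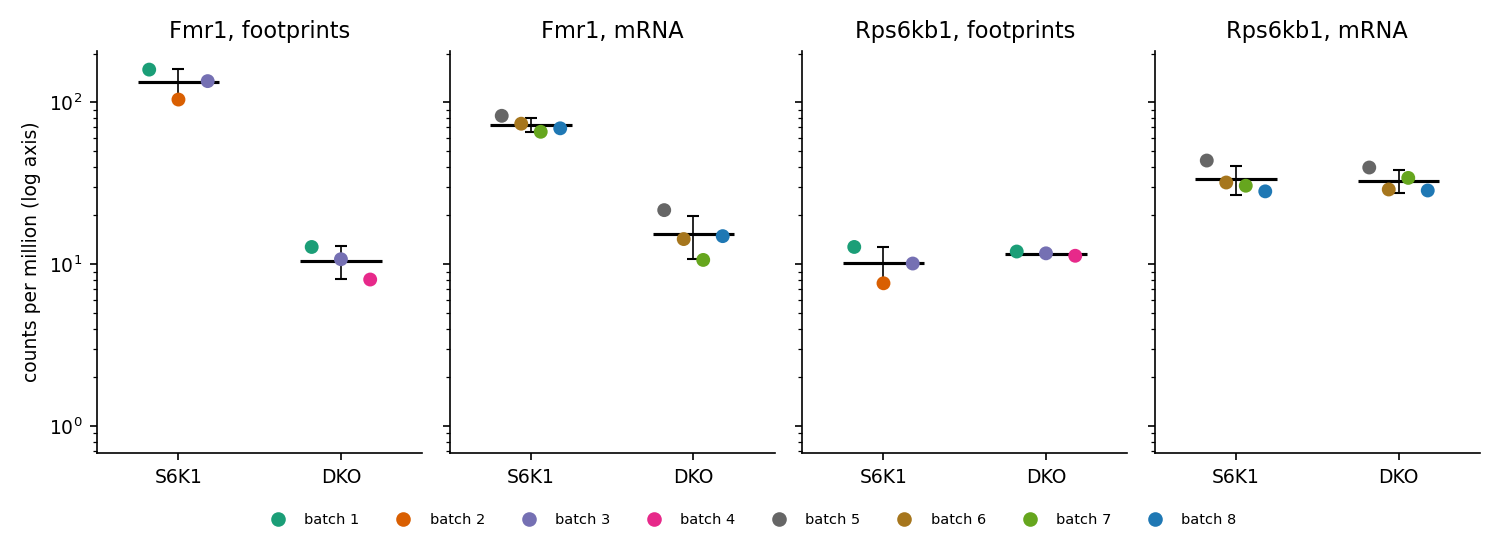
CPM of Fmr1 and Rps6kb1 in each S6K1 and DKO library on a log axis, for footprints (n = 3) and mRNA (n = 4), with points coloured by batch, a line at the mean and bars of 1 SD. Fmr1 footprints lie between 104 and 159 in S6K1 and between 8.03 and 12.8 in DKO, while the Rps6kb1 values of the groups overlap.

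Across the transcriptome, Fmr1 was the only gene called. Of 13953 genes tested, 1 passed an adjusted p of 0.05 by edgeR, which is 0.00717%, and the next smallest adjusted p was 0.259. At an unadjusted p under 0.05, 588 genes (4.21%) were higher and 622 genes (4.46%) were lower in DKO. The 3 DKO libraries lay above the 3 S6K1 libraries for 501 genes (3.59%) and below them for 678 genes (4.86%). With limma voom the count was also 1. DESeq2 on the same design called 20 genes (0.143%), 5 higher and 15 lower, Fmr1 among them, with 1106 genes at an unadjusted p under 0.05.

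The width of the intervals shows what size of change the libraries could have shown. The median SE of a log2 fold change was 0.11 for the 8932 genes with a mean of at least 10 CPM. For 8824 of them, 98.8%, the 95% interval lay within a 2-fold change in either direction, and for 90.6% it lay within 1.5-fold. Fmr1 and Serpina3n were the 2 of these genes with a fitted change beyond 2-fold. Serpina3n, an acute-phase serine protease inhibitor named here after its value was seen, had a log2 fold change of -1.17 with an SE of 1.01. For the 5021 genes below 10 CPM, the median SE was 0.25 and 68.8% of intervals lay within 2-fold, so for the others a change beyond 2-fold lay within the interval.

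**Figure D2:**
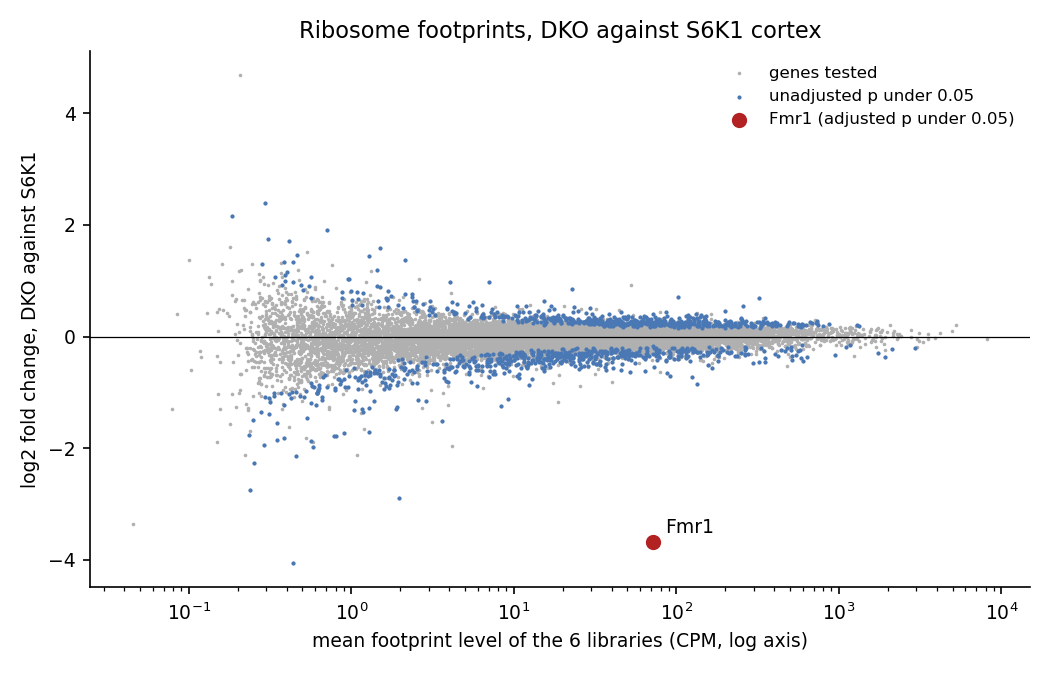
Log2 fold change of footprints, DKO against S6K1, against the mean level of the 6 libraries in CPM on a log axis, 1 point per gene tested (13953), with genes of unadjusted p under 0.05 in blue. Fmr1, at -3.68, is the only gene past an adjusted p of 0.05, and the spread of the other genes widens below 10 CPM.

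FXS against WT footprints, from 9 other libraries, give a set of genes chosen without any DKO or S6K1 library other than through the shared batch and dispersion terms of the fit. In that contrast edgeR called 23 genes (0.165%), 2 higher and 21 lower, and Fmr1 was 1 of the 21. All of the other 20 genes had lower fitted footprints in DKO than in S6K1, against 7034 of 13952 genes overall. Of these 20 genes, 12 had an unadjusted p under 0.05, against 621 of 13952 that were lower at that level among all genes but Fmr1. The median log2 fold change of the 20 genes was -0.31. Their median in FXS against WT was -0.60, but that contrast chose them, so the sizes cannot be set against each other. None of the 20 passed the adjusted threshold in DKO against S6K1, where the smallest adjusted p was 0.259, for Tnrc6c.

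The same direction was seen within batches, which use no WT or FXS library. Within batch 1 the DKO library was lower for 20 of the 20 genes, with a median of -0.24, and within batch 3 for 19 of 20, with a median of -0.29. The exception was Prickle1 at 0.01 within batch 3. Both batches were below 0 for 19 of 20, against 3537 of 13952 genes overall. All 3 DKO libraries lay below all 3 S6K1 libraries for 8 of the 20, against 677 of 13952 among all genes but Fmr1. The median mRNA change of the 20 genes was -0.13 and the median TE change was -0.21.

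A longer list chosen with DESeq2 in FXS against WT was less uniform in direction, most clearly within batch 1. Of 83 such genes without Fmr1, 94.0% were lower in DKO than in S6K1 in the fit of all libraries and 72.3% within batch 1 alone, where 46.5% of all genes were lower. Within batch 3 the share was 91.6%, where 50.1% of all genes were lower. The median of these genes was -0.26 in the fit of all libraries, -0.11 within batch 1 and -0.37 within batch 3. Of 72 genes chosen by DESeq2 from the 9 WT and FXS libraries alone, 97.2% were lower in the fit of all libraries, 66.7% within batch 1 and 94.4% within batch 3. Their medians were -0.29, -0.12 and -0.43 in the same order. These versions were added after the data had been seen.

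Of the 20 genes, 8 belong to the oligodendrocyte or major myelin lists, among them Itgb4, Myrf, Sept4, Cnp, Fa2h, Ugt8a and Gjc3. Cnp encodes a myelin-associated phosphodiesterase, Myrf the transcription factor that drives myelination, and Fa2h and Ugt8a enzymes of myelin lipid synthesis. Their median was -0.20 in DKO against S6K1, and 3 of the 8 (Itgb4, Myrf and Sept4) had an unadjusted p under 0.05. The remaining 12 had a median of -0.33, and 9 of the 12 had an unadjusted p under 0.05. Of all genes tested, 4.46% were lower at that level. The median interaction was 0.36 for the 8 myelin and oligodendrocyte genes and 0.19 for the other 12, where a positive value means that the reduction was smaller in the S6K1-deficient background. The interaction was called for none of them, and the choice of the genes on FXS against WT values moves it upward.

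All DKO libraries lay below all S6K1 libraries for 4 of the 8 myelin and oligodendrocyte genes, Cnp and Fa2h among them, against 677 of 13952 genes without Fmr1. Cnp footprints were 669, 717 and 670 CPM in S6K1 and 603, 555 and 575 CPM in DKO, without overlap. The log2 fold change was -0.17 with a 95% interval from -0.35 to 0.01, against -0.52 in FXS against WT. The unadjusted p of the interaction was 0.00577 for Cnp by edgeR, and the adjusted p was 1.00. Fa2h footprints were 23.7, 29.4 and 31.2 CPM in S6K1 and 22.9, 20.5 and 21.1 CPM in DKO, also without overlap, at a log2 fold change of -0.31 against -0.76 in FXS against WT.

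Among the 12 genes outside those lists, Tnrc6c, Igsf9b and Zfpm1 also stood among the 25 genes of smallest p in DKO against S6K1. Tnrc6c encodes a GW182-family protein that carries out microRNA silencing. Its footprints were 34.4, 46.0 and 37.6 CPM in S6K1 and 24.5, 27.9 and 32.2 CPM in DKO, with no overlap and a log2 fold change of -0.51 ± 0.09 (SE). Igsf9b encodes an adhesion molecule of inhibitory synapses. Its footprints were 12.2, 18 and 20.5 CPM in S6K1 and 8.05, 9.59 and 9.18 CPM in DKO, with no overlap and a log2 fold change of -0.76 ± 0.15 (SE). Zfpm1, which encodes a cofactor of GATA transcription factors, had overlapping groups at 6.08, 14 and 13.6 CPM in S6K1 and 4.52, 7.22 and 10.4 CPM in DKO, with a log2 fold change of -0.61 ± 0.13 (SE). Their FXS against WT values were -0.38, -0.89 and -0.61 in the same order, and the interaction had unadjusted p-values of 0.264, 0.530 and 0.986 by edgeR. The 2 genes called higher in FXS against WT, Cd99l2 and Acvr2a, gave 0.18 and 0.07 in DKO against S6K1, and neither reached an unadjusted p of 0.05.

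**Figure D3:**
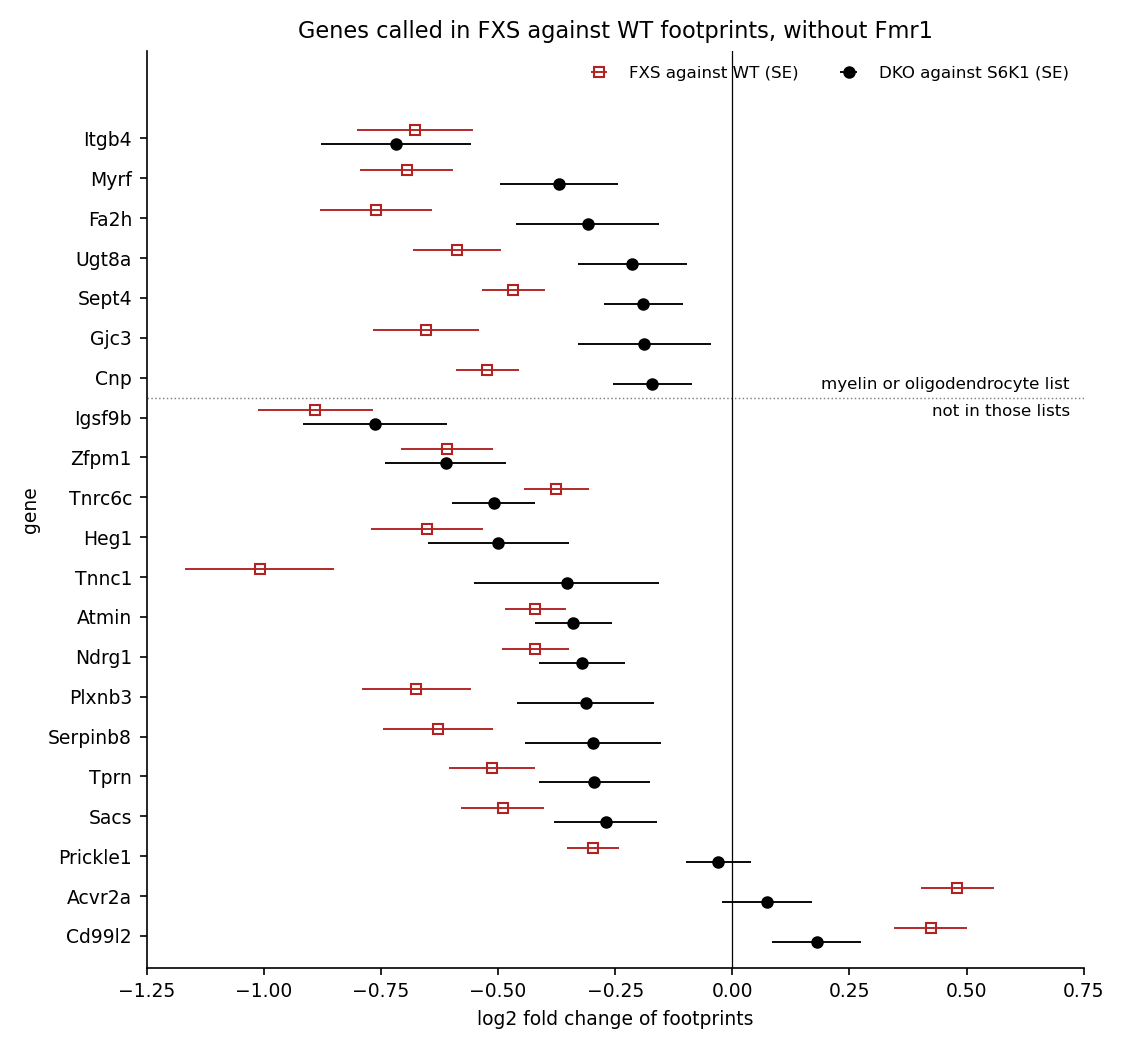
Log2 fold change of footprints with its SE for 21 of the genes other than Fmr1 called in FXS against WT, in FXS against WT (open squares) and in DKO against S6K1 (filled circles). The 19 genes shown that were lower in FXS are all left of 0 in DKO against S6K1, with 7 myelin or oligodendrocyte genes above the dotted line.

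The 24 genes that followed Fmr1 by p had adjusted p-values from 0.259 to 0.316 by edgeR, so none was called, and they are described here as the upper end of the ranking. Of these, 17 were lower and 7 were higher in DKO. All 24 kept their sign within batch 1 and within batch 3, which the ranking itself favours. Separated groups were seen for 12 lower genes and 3 higher ones, against 4.86% and 3.59% of all genes tested, and the ranking favours this too. DESeq2 called 18 of the 24, all but Hdc, Gstm6, 1700094D03Rik, Itgb4, Mospd1 and H2-M3, together with Gabra2, and those 6 except Itgb4 and Mospd1 had fewer than 4 CPM in every library.

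Among the 17 lower genes, Hyou1, an endoplasmic reticulum chaperone, had footprints of 128, 169 and 141 CPM in S6K1 and 94.5, 104 and 92.3 CPM in DKO. The groups did not overlap, and the log2 fold change of -0.43 ± 0.09 (SE) was nearly equal within batch 1 (-0.43) and batch 3 (-0.44). Hyou1 changed by 0.12 in mRNA and by 0.02 in FXS against WT footprints, neither called. Tnfrsf21, the death receptor DR6, had 33.7, 39.8 and 37.1 CPM in S6K1 and 23.1, 24.9 and 26.1 CPM in DKO, again without overlap, at a log2 fold change of -0.47. Sema5b, a semaphorin, had 12.1, 17.1 and 13.2 CPM in S6K1 and 6.44, 7.81 and 8.25 CPM in DKO, at a log2 fold change of -0.74. The secreted protein gene Scube1 gave -0.60, and Tns1, which encodes the adhesion protein tensin 1, gave -0.58, both with overlapping groups.

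Pcdhga9, a gamma protocadherin, had 17.3, 20.2 and 12.5 CPM in S6K1 and 8.73, 9.38 and 6.50 CPM in DKO, at a log2 fold change of -0.87. Members of that cluster share their last exons, so the counts of a single member depend on how shared reads were assigned and are uncertain. The same caution holds for Gstm6, which belongs to a family of closely similar genes. H2-M3 had low counts, with means of 1.92 CPM in S6K1 and 0.85 CPM in DKO. Gfap, the intermediate filament of astrocytes, had 65.6, 50.0 and 64.9 CPM in S6K1 and 33.3, 41.8 and 53.5 CPM in DKO, at a log2 fold change of -0.64 with overlap. None of the other 15 astrocyte markers tested had an unadjusted p under 0.05. The astrocyte list had a median of -0.51 within batch 1 and 0.28 within batch 3. D8Ertd82e gave -0.61 with overlapping groups, and Lipg, which encodes endothelial lipase, gave -1.52 at no more than 7.76 CPM.

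Among the 7 higher genes was Anxa5, which DESeq2 also called in the interaction, as it did S100a10 among the lower ones. Anxa5, which encodes a phospholipid-binding annexin, had 89.8, 61.4 and 85.0 CPM in S6K1 and 111, 169 and 103 CPM in DKO. The groups did not overlap and the log2 fold change was 0.70 ± 0.14 (SE). S100a10, which encodes the partner of annexin A2, had 39.7, 36.5 and 48.7 CPM in S6K1 and 31.8, 26.4 and 34.7 CPM in DKO, at a log2 fold change of -0.55 or, for mRNA, -0.43. In FXS against WT the signs were the other way, at -0.29 for Anxa5 and 0.39 for S100a10. Oxsr1, a kinase that controls cation-chloride cotransporters, gave 0.40, Gpcpd1 0.45 and Lcorl 0.52, each with overlapping groups.

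**Figure D4:**
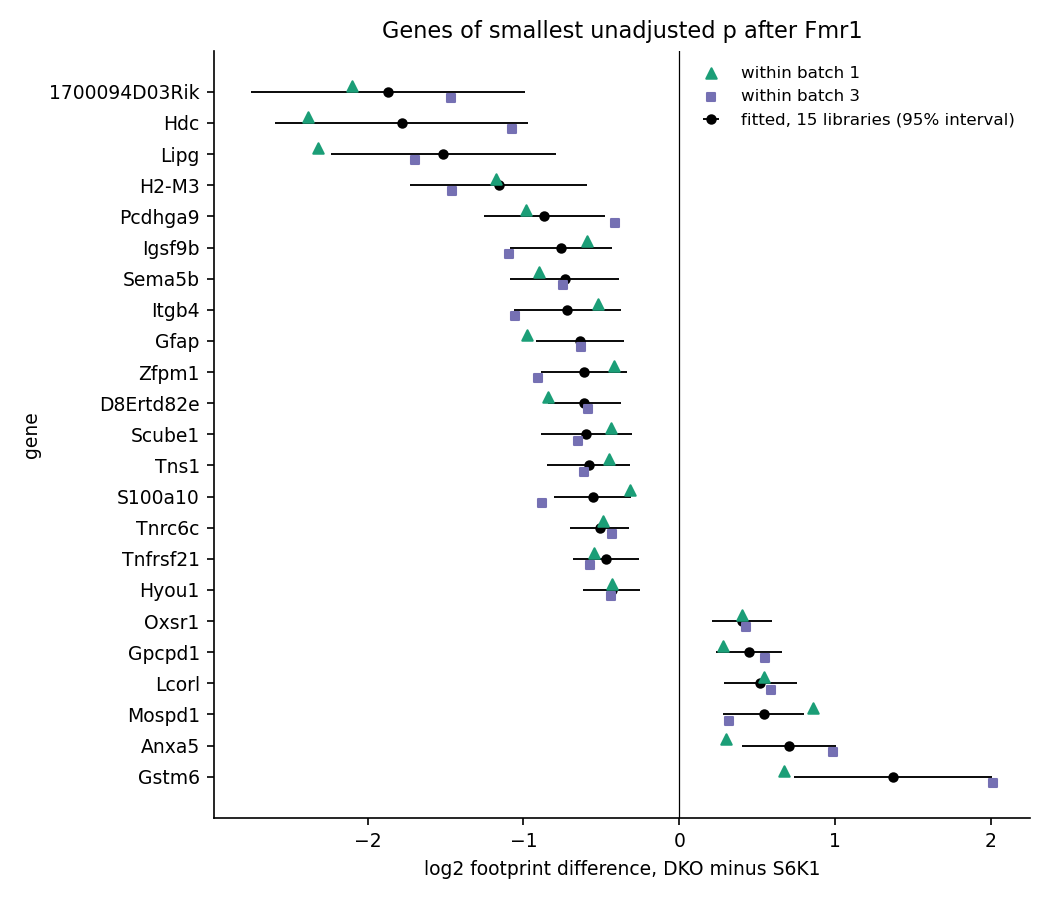
Fitted log2 fold change of footprints with its 95% interval for 23 of the 24 genes of smallest unadjusted p after Fmr1, with the difference within batch 1 (triangles) and within batch 3 (squares). All 23 have both batch values on the side of the fitted value, 17 below 0 and 6 above, and none passed an adjusted p of 0.05.

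Whether Fmr1 loss acted differently with and without S6K1 is asked by the interaction. edgeR called no gene of 13953 (0%), with 428 genes at an unadjusted p under 0.05, and limma voom called none. DESeq2 called 5 genes, Hist1h4i, Gabra2, H2-L, S100a10 and Anxa5. S100a10 had an interaction of -0.95 ± 0.15 (SE) with an adjusted p of 0.224 by edgeR, and Anxa5 one of 1.00 ± 0.18 (SE) with an adjusted p of 0.503. Gabra2, the alpha2 subunit of GABA-A receptors, had footprints of 272, 170.4 and 96.3 CPM in S6K1 and 91.7, 64.9 and 111 CPM in DKO. The groups overlapped because S6K1 library 3 was below DKO library 3. Gabra2 gave -0.84 in DKO against S6K1 and -1.57 within batch 1, 0.35 in FXS against WT, and 0.02 in mRNA. Hist1h4i and H2-L belong to families of near-identical genes, and H2-L had no count in any S6K1 library.

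Known targets of FMRP are the mRNAs on which its loss would be looked for first. Of 90 such mRNAs, 66 had lower fitted footprints in DKO, with a median of -0.09 against 0.00 for all genes, and 10 (11.1%) had an unadjusted p under 0.05 in that direction, against 4.46% of all genes. One, Pclo, had an unadjusted p under 0.05 in the other direction, and none was called. The median mRNA change of these 90 genes was 0.06 and the median TE change was -0.17. In FXS against WT the median footprint change was -0.13. The list was -0.13 within both batch 1 and batch 3, and it was -0.05 without S6K1 library 3, -0.14 without S6K1 library 2 and -0.19 with no batch term.

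The 10 lower targets are Igsf9b, Itpr1, Lrp1, Cacna1i, App, Slc12a5, Agap2, Nlgn3, Gabbr1 and Grin2b, chosen after their values were seen. Lrp1, a large endocytic receptor, had 561, 943 and 699.9 CPM in S6K1 and 466, 498 and 447 CPM in DKO. App, the amyloid precursor protein gene, had 2134, 2549.8 and 2066 CPM in S6K1 and 1808, 1482 and 1524 CPM in DKO. Itpr1, the endoplasmic reticulum calcium release channel, had 674, 549 and 615 CPM in S6K1 and 501, 494 and 412 CPM in DKO. Each of these separated the groups, at log2 fold changes of -0.45, -0.37 and -0.33, with adjusted p-values of 0.502, 0.534 and 0.491 by edgeR. Cacna1i, a T-type calcium channel, separated them at 51.2, 60.0 and 59.3 CPM against 41.7, 43.2 and 44.9 CPM. Pclo, a presynaptic scaffold, had 320, 341 and 194 CPM in S6K1 and 476, 442 and 168 CPM in DKO, so that DKO library 3 was the lowest of the 6. The FMRP partners and paralogs showed no called change other than Fmr1, and of the 21 tested, Fxr1, Stau2 and Ybx1 (14.3%, against 4.21% of all genes) were higher at an unadjusted p under 0.05, at log2 fold changes of 0.19, 0.20 and 0.21.

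No component of the S6 kinase and mTORC1 pathway was called. Of 44 tested, 3, Tbc1d7 and Rictor among them, were higher at an unadjusted p under 0.05 (6.82%, near the 4.21% of all genes) and none was lower, with a list median of 0.03. Rps6, the S6K1 substrate that gives the kinase its name, had 368, 286 and 340 CPM in S6K1 and 326, 343 and 336 CPM in DKO, at a log2 fold change of -0.08. Mtor gave -0.03, Rptor -0.09 and the paralog Rps6kb2 0.26, none with an unadjusted p under 0.05. The S6K1 substrates Eif4b and Pdcd4 gave 0.02 and 0.15. Of 47 initiation and elongation factors, Eif1, Eif3j1, Eif1ax, Eif2b3 and Eif4a1 (10.6%, against 4.21% of all genes) were higher at an unadjusted p under 0.05 and none was lower. Eif4a1, the RNA helicase of the cap-binding complex, had 676, 633 and 747 CPM in S6K1 and 870, 795 and 766 CPM in DKO, with a log2 fold change of 0.20 and an adjusted p of 0.574 by edgeR. The list median was 0.09 in footprints and -0.05 in mRNA. The 78 ribosomal protein genes had a median of 0.00 in footprints, with 0.05 within batch 1 and -0.11 within batch 3. Rpl5 (1.28%) was higher and Fau and Rps19 (2.56%) were lower at an unadjusted p under 0.05, against 4.21% and 4.46% of all genes.

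No receptor or channel gene was called. Among all genes tested, 50.4% were below 0, 4.46% were lower at an unadjusted p under 0.05 and 4.86% had all DKO libraries below all S6K1 libraries. Of 16 AMPA and NMDA receptor genes 15 were below 0 with a median of -0.11, and Gsg1l and Grin2b (12.5%) were lower at an unadjusted p under 0.05. Gria1 gave -0.09, Gria2 -0.04, Grin1 -0.17 and Grin2a -0.19. Of 34 potassium channel genes 28 were below 0, with Kcnh1 and Kcnc4 at an unadjusted p under 0.05 (5.88%, near the share of all genes). Of 23 sodium and calcium channel genes 19 were below 0, with Scn4b, Cacna2d2 and Cacna1i at that level (13%), and 6 of the 23 (26.1%) had all DKO libraries below all S6K1 libraries. The potassium channel median was -0.01 within batch 1 and -0.27 within batch 3, and the sodium and calcium channel median was -0.03 and -0.23, so both medians were farther below 0 within batch 3. The mRNA medians were above 0, at 0.09 for the AMPA and NMDA receptor genes, 0.13 for the potassium channel genes and 0.04 for the sodium and calcium channel genes. Among 13 GABA-A receptor genes, Gabra2, Gabrd and Gabra3 were lower (23.1%) and the scaffold gene Gphn was higher (7.69%) at an unadjusted p under 0.05. Gabrd, the delta subunit of extrasynaptic receptors, had 66.9, 86.2 and 73.5 CPM in S6K1 and 63.0, 47.8 and 48.6 CPM in DKO, without overlap.

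Levels of markers of other cell types and of neighbouring tissue are given beside these lists. The oligodendrocyte list was below 0 for 30 of the 30 genes tested, against 50.4% of all genes, with a median of -0.23. Itgb4, Plekhb1, Myrf, Sept4 and Nfasc, 16.7% of the list, were lower at an unadjusted p under 0.05, against 4.46% of all genes. Its summed level was 1964 to 2069 CPM in S6K1 and 1340.5 to 1781 CPM in DKO, with no overlap, and its median was -0.15 within batch 1 and -0.22 within batch 3. In FXS against WT the median was -0.51. The 8 major myelin genes were all below 0, with a median of -0.15 and none at an unadjusted p under 0.05, and their summed level was 2573 to 2794 CPM in S6K1 and 1855 to 2623 CPM in DKO. Mag, an adhesion molecule of myelin, had 180, 238 and 198 CPM in S6K1 and 147, 139 and 127 CPM in DKO. Mbp, a main structural protein of myelin, overlapped at 234, 363 and 355 CPM in S6K1 and 261, 292 and 318 CPM in DKO. The oligodendrocyte median was -0.08 in mRNA and -0.20 in TE. In lysates of whole cortex, fewer cells of a type and fewer footprints per cell cannot be told apart.

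Striatal markers, listed here as genes of tissue beneath the cortex, were lower in 11 of 12 genes, with a median of -0.44 in footprints and -0.06 in mRNA. Whether they measure such tissue in these libraries was not tested. Ppp1r1b, the dopamine signalling protein DARPP-32, had 77.0, 239.5 and 159 CPM in S6K1 and 39.4, 98.1 and 133 CPM in DKO. Of the 12, 4 were lower at an unadjusted p under 0.05 (33.3%, against 4.46% of all genes), Ppp1r1b, Pdyn and Penk among them, and the summed level was 326 to 910.5 CPM in S6K1 and 230.1 to 422 CPM in DKO. The list median was -0.61 within batch 1 and -0.30 within batch 3, and it was -0.17 without DKO library 3, -0.19 without S6K1 library 3 and -0.69 without DKO library 2. Blood markers ran the other way in footprints, with a summed level of 20.4 to 22.0 CPM in S6K1 and 23.4 to 56.0 CPM in DKO. Alas2 and Hba-a2, 2 of only 4 tested (50%, against 4.21% of all genes), were higher at an unadjusted p under 0.05. The median of the 4 was 0.79 in footprints and -1.07 in mRNA. No marker in either list was at 0 in all 6 libraries. Their part in the values of the other lists was not tested. Excitatory and layer markers had a median of 0.00, endothelial markers 0.05, microglial markers 0.03 and interneuron markers -0.09. Hippocampal markers had a median of 0.17, with 1.19 within batch 1 and 0.16 within batch 3. Choroid plexus markers had 0.13, with -0.96 and 0.66, and thalamic markers -0.06, with -0.31 and 0.09, in the same order. The summed levels of each of these lists of neighbouring tissue overlapped between the groups.

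**Figure D5:**
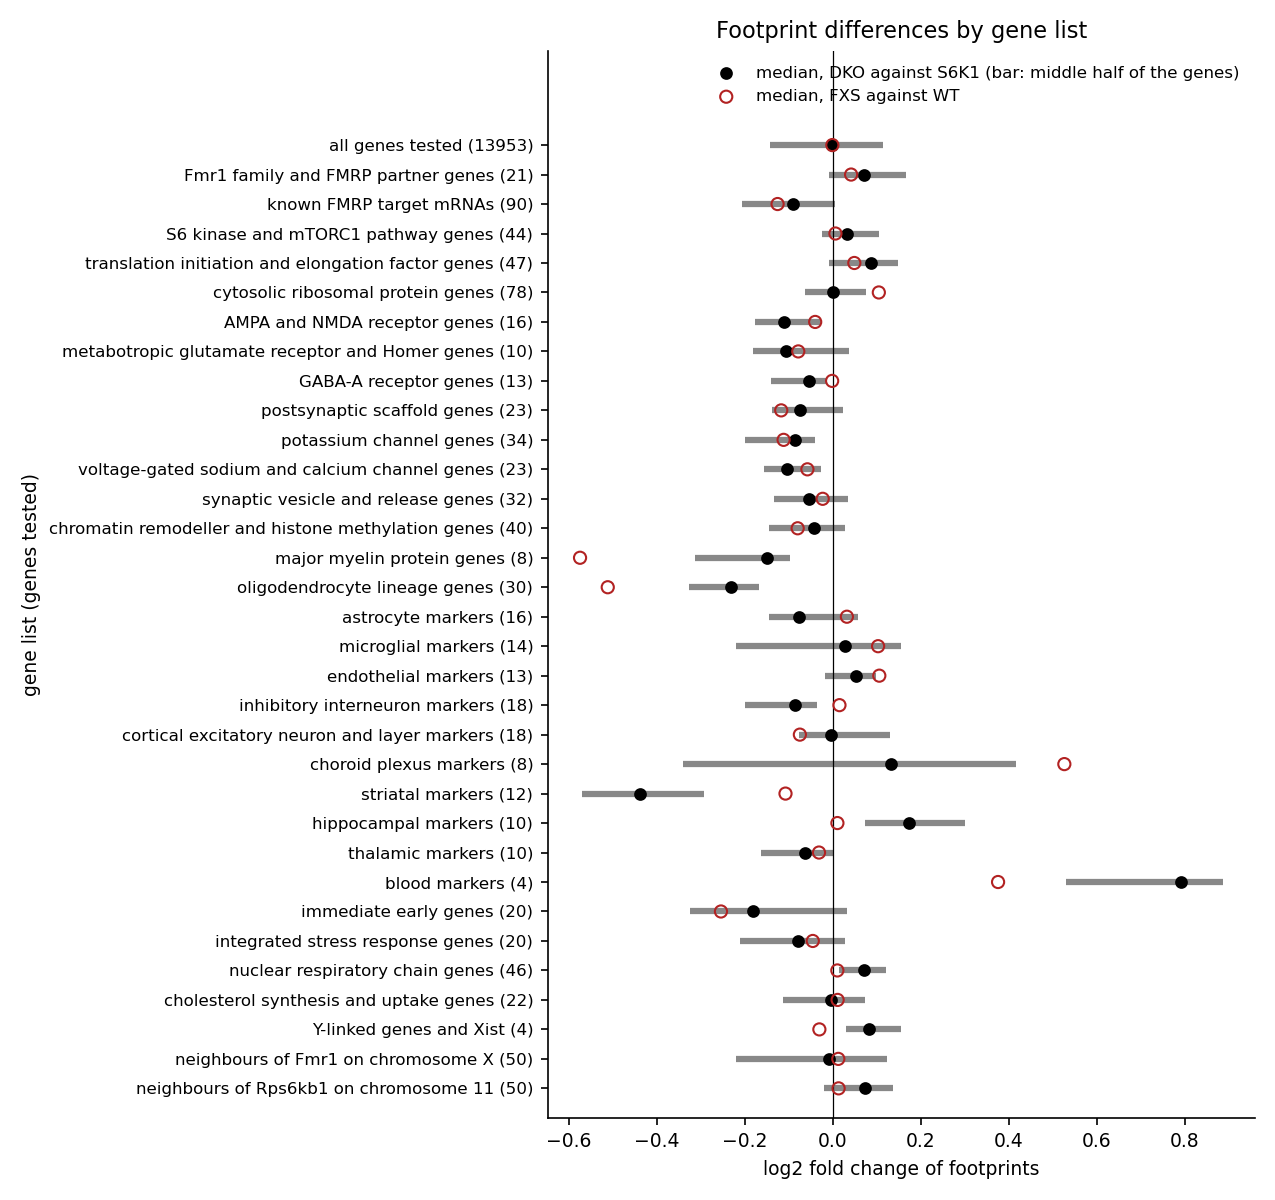
Median log2 fold change of footprints for each gene list in DKO against S6K1 (filled circles, with a bar over the middle 50% of its genes) and in FXS against WT (open circles), with the number of genes tested. The oligodendrocyte list lies at -0.23 in DKO against S6K1 and at -0.51 in FXS against WT, and the striatal list at -0.44 and -0.11.

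Genes beside the disrupted loci were read because alleles travel with flanking DNA. Of 50 tested genes nearest Fmr1, 25 on each side, 3 were higher (Mospd1, Fgf13 and Phf6) and 2 were lower (Gabra3 and Gabre) at an unadjusted p under 0.05, near the shares of all genes, and the median was -0.01. Cd99l2, called higher in FXS against WT footprints, is also 1 of these 50. It was the only 1 of the 49 tested in mRNA to be called there in DKO against S6K1, where 0.387% of all genes were called. Fgf13, an intracellular regulator of sodium channels, had 109, 106 and 129 CPM in S6K1 and 149.9, 144 and 138 CPM in DKO without overlap, at a log2 fold change of 0.30 and an adjusted p of 0.479 by edgeR. Of the 50 nearest Rps6kb1, which is disrupted in both groups, 3 were higher (6%) and 1 was lower (2%) at that level, against 4.21% and 4.46% of all genes. The median of these 50 was 0.07, with 0.08 within batch 1 and 0.15 within batch 3. Of the 50, 16 were below 0, against 50.4% of all genes.

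At the mRNA level more genes passed the threshold than in footprints. Of 14215 genes tested, edgeR called 55 (0.387%), 45 higher and 10 lower in DKO, from 4 libraries of each genotype in batches that held every genotype once. That count depended on single libraries. It was 5 without DKO mRNA library 2, without DKO mRNA library 3 or without S6K1 mRNA library 3. It was 8 without S6K1 mRNA library 2, 18 without DKO mRNA library 4 and 392 without S6K1 mRNA library 4. Panx2, a pannexin channel gene, had a log2 fold change of 0.53 with an adjusted p of 0.00103, Pls3, which encodes the actin-bundling plastin 3, one of -0.52 with an adjusted p of 0.00103, and Kctd4 one of -0.57 with an adjusted p of 0.00498, all by edgeR. These 3, Fmr1 and Cd99l2 were called in each of the 3 cases that left 5 genes. Their footprint changes were -0.07 for Panx2, -0.20 for Pls3 and 0.15 for Kctd4, none at an unadjusted p under 0.05.

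None of the genes called in mRNA other than Fmr1 had an unadjusted p under 0.05 in footprints. Of the 45 genes higher in mRNA, with a median of 0.37 there, 30 were lower in footprints, with a median of -0.07. Of the 9 lower in mRNA besides Fmr1, with a median of -0.52, 6 were lower in footprints, with a median of -0.11. Among all genes tested, 50.4% were lower in footprints. The batches differed. For the 45 genes, 21 were lower within batch 1 (median 0.01) and 41 within batch 3 (median -0.34). For the 9 genes, 7 were lower within batch 1 (median -0.13) and 2 within batch 3 (median 0.11). Because TE is the footprint change minus the mRNA change, these genes had median TE changes of -0.44 and 0.44, which the choice on mRNA favours. TE was called for 1 of 13654 genes (0.00732%), the disrupted gene Fmr1, and 1997 genes had an unadjusted p under 0.05. The next was Phtf1 at -0.82 with an adjusted p of 0.101 by edgeR, whose footprints were 10.8, 8.93 and 8.76 CPM in S6K1 and 8.81, 3.62 and 4.76 CPM in DKO. Phtf1 and Sema7a passed as well without DKO footprint library 1 or without S6K1 footprint library 1, and Pmch without S6K1 library 3, DKO library 2 or DKO library 3.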

How the data were processed

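Ribosome footprints and polyadenylated mRNA were counted per gene in mouse cortex. The authors deposited raw counts per gene symbol, 20436 symbols in each table. The submitters' processing notes name cutadapt 2.0, Bowtie2, TopHat2, RSEM and the mm10 build, without roles, and the annotation and read filters are not given in the sources used here. Footprint libraries held 16.6 to 34.9 M counts and mRNA libraries 12.1 to 17.3 M.

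All 15 footprint libraries were fitted together with batch and genotype in edgeR 4.0.16 (R 4.3.3; quasi-likelihood F-test, robust dispersions, filterByExpr on genotype, TMM scaling), and the DKO against S6K1 contrast was taken. Calls were made where the p-value, adjusted by Benjamini and Hochberg's method over every gene tested, was under 0.05. The 16 mRNA libraries were fitted likewise, and TE was tested in a joint model of both assays (31 libraries, with batch terms inside each assay). Levels are CPM with TMM scaling, and differences within a batch are log2 CPM with a prior count of 2. SEs were derived from the F statistic. DESeq2 1.42.0 and limma 3.58.1 (voom) were alternatives, and the fits were tested on simulated data. Labels do not say that libraries came from separate animals, so p-values measure the spread between these libraries.

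Genes named were Fmr1 and Rps6kb1, the 25 of smallest p, called list members and the 2 members of each list with most footprints, and up to 4 called genes in the interaction, mRNA and TE, with every other gene named after its values were seen. The comparison, the gene lists and the rules were chosen with earlier results of these data known. Classes of genes by protein length, which had been planned, were not run. Gene coordinates are from RefSeq on GRCm38.p6. Values of some single genes are not reported here, and counts still include them.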

Additional observations from a re-analysis of the deposited data

How the results depend on the processing

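Fmr1 footprints kept a log2 fold change between -3.76 and -3.61 and an adjusted p under 0.05 in all 23 alternatives (scaling, test, batch term, filters, the 6 libraries alone, each of the 15 footprint libraries left out). The number of genes called in footprints was 20 with DESeq2 and 1 to 3 as libraries were left out: D8Ertd82e and Hcrt joined Fmr1 without S6K1 library 2, and Pmch without DKO library 2. Hcrt and Pmch did not pass the filter with all libraries. The interaction count was 5 with DESeq2 and 0 with every library left out in turn. The mRNA count was 126 with RLE factors (108 of them higher), 353 with DESeq2, 1 with no batch term and 5 to 392 as libraries were left out. The TE count was 24 with DESeq2, 0 with no batch term (536 genes at an unadjusted p under 0.05) and 1 to 3 as libraries were left out. The cause of these shifts was not tested. Of the genes called lower in FXS against WT, the number below 0 in DKO against S6K1 was 20 with RLE factors, no batch term and the 6 libraries alone, and 19 to 20 as DKO or S6K1 libraries were left out. Of 88 named genes, 32 had an unadjusted p under 0.05 in the main fit, and none of these changed sign in any alternative that tested it. Fitted values of some of the others crossed 0 among the alternatives. They ran from -0.14 to 0.04 for Gria2 and from -0.13 to 0.03 for Rps6. No paired analysis was possible because the labels give libraries no replicate number, other than by batch, which was the block in the model and sets the genotypes side by side within batches 1 and 3. Intervals were wider for genes below 10 CPM.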
